A study of Mus musculus with 26 samples.

Results

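The RNA polymerase II (Pol II) machinery was followed as 47 genes: 12 Pol II subunits, the Pol II-associated protein gene Polr2m, 3 genes of the TATA-binding protein (TBP) family, 14 TBP-associated factors (TAFs), and 17 genes of TFIIA, TFIIB, TFIIE, TFIIF and TFIIH. The members are the rows whose Ensembl ID carries 1 of these 47 symbols in the GENCODE vM21 annotation, of 55401 gene IDs in all, and each symbol matched 1 ID. Total RNA was counted in 26 libraries of mouse unfertilised eggs and 1-cell embryos, which make up 5 groups. The first group is 7 libraries of 1-cell embryos (B6D2F1 oocytes fertilised in vitro by B6D2F1 sperm, F2) given the c-Myc inhibitor 10058-F4 for 10 h, starting 2 h after mixing. The second is 7 control libraries of such embryos, also labelled 10 h. The third is 4 libraries of embryos of the same cross given alpha-amanitin, a mushroom toxin that blocks Pol II, at a dose of 100 µg/ml for 10 h, starting 1 h after mixing. The fourth is 4 control libraries that belong to it, labelled 10 h, and the fifth is 4 libraries of B6D2F1 oocytes arrested at metaphase of the second meiotic division (MII), labelled 0 h. All 22 embryo libraries carry the label 10 h, while the treatment times of the protocols end 12 h (c-Myc inhibitor) and 11 h (alpha-amanitin) after mixing. The sources used here give neither the dose of 10058-F4 nor the handling of its controls, nor the number of embryos in each library. The treatment protocol names another c-Myc inhibitor, MYCi975, as an alternative to 10058-F4, and the titles of the 7 treated libraries name 10058-F4.

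Pol II makes the messenger RNA of the genes in the nucleus, but it cannot find a gene's start by itself. The general transcription factors assemble there in steps: TFIID, built of TBP and its TAFs, binds the promoter, TFIIA and TFIIB stabilise it, TFIIF escorts the polymerase, and TFIIE and TFIIH open the DNA and phosphorylate the polymerase's tail. The mouse oocyte stocks such transcripts while it grows, falls silent before ovulation, and the embryo restarts transcription in the late 1-cell stage, so that transcripts in early embryos can be maternal stock or new. In growing mouse oocytes the TBP paralogue Tbpl2 (TRF3) takes over from TBP, and Taf4b is a TAF enriched in the gonads. c-Myc pairs with Max and binds the E-box CACGTG.

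The data were counts per gene. Library totals were 20566278 to 27266040 counts in the c-Myc inhibitor series and 5371602 to 31540627 in the alpha-amanitin series, where replicate 3 of the alpha-amanitin embryos was the shallowest. Levels are given in CPM, counts scaled to a common library size (here with TMM-scaled totals). A gene without counts may still be present at up to 0.0951 to 0.558 CPM, depending on the library and for counting error only. CPM are shares of a library, so that a lower share of a transcript and a larger share of other RNA cannot be told apart. The libraries of the alpha-amanitin series varied more, with a biological coefficient of variation of 1.12, against 0.555 in the c-Myc inhibitor series. The labels name no separate donors or preparation days, and p-values therefore measure only how these libraries vary, which may be technical. All 13 genes of an oocyte marker list were present in each group, and 4 of 4 haemoglobin genes were at 0 in all libraries. Summed CPM of 10 cumulus cell markers were 6.34 to 20.3 in c-Myc inhibitor embryos and 9.04 to 43.9 in their controls, 4.91 to 28.0 in alpha-amanitin embryos and 8.51 to 49.8 in their controls, and 13.6 to 70.1 in oocytes. The sums of 7 sperm markers stayed between 0 and 22.2 CPM, with Tnp1, Tnp2 and Smcp at 0 in all groups. The oocyte markers' summed CPM did move with the c-Myc inhibitor, at 8137 to 10150 in treated embryos and 5030 to 7240 in their controls, against 10192 to 10827 in oocytes. In alpha-amanitin embryos the sums were 5423 to 7589 and overlapped those of their controls, 5231 to 6312. The part of these shifts in the results below was not tested.

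The machinery's transcripts were present in oocytes and embryos, at levels that differed widely between members. Together the 47 genes made up 4335 ± 59.3 CPM in c-Myc inhibitor embryos and 4545 ± 208 CPM in their controls (SD, n = 7 each), and 4136 ± 242 CPM in alpha-amanitin embryos, 4168 ± 278 CPM in their controls and 4204 ± 23.2 CPM in oocytes (SD, n = 4 each). Between genes, levels were compared as mean CPM per kilobase of the longest principal transcript. On that scale the oocyte levels were led by Gtf2b, which bridges TBP and the polymerase, at 213 CPM per kb, by the subunit gene Polr2d at 206, by the TAF gene Taf3, whose protein reads trimethylated histone H3 lysine 4, at 135, and by the subunit gene Polr2c at 112. Polr2a, which encodes the largest subunit with the phosphorylated tail, had 15.0 CPM per kb in oocytes. At the low end, above Taf9, were Gtf2h4 of TFIIH at 0.618 CPM per kb, Gtf2e1 of TFIIE at 2.71 and Tbpl1 at 4.55. Transcript length decides Tbp's place: its oocyte level was 11.3 CPM per kb of a 12794-base principal transcript but 76.4 per kb of the 1891-base one. Tbpl2 (1379 bases) had 10.3 CPM per kb, lower than either value, though with the longer Tbp transcript the gap lay within the 39.3% coefficient of variation of Tbpl2 between oocyte libraries. The top places depend on length as well. Per kb of all exon bases of a gene, Polr2d ranked 1 at 206 and Taf3 ranked 2 at 102, so that Gtf2b did not lead. Polr2c had 33.8 on that scale and ranked 12. Taf9, a histone-fold TAF, could not be followed: its row held at most 0.0488 CPM in any library, 73.8% of its exon bases are shared with Ak6 on the same strand, and the sources used here do not say how shared reads were counted.

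**Figure D1:**
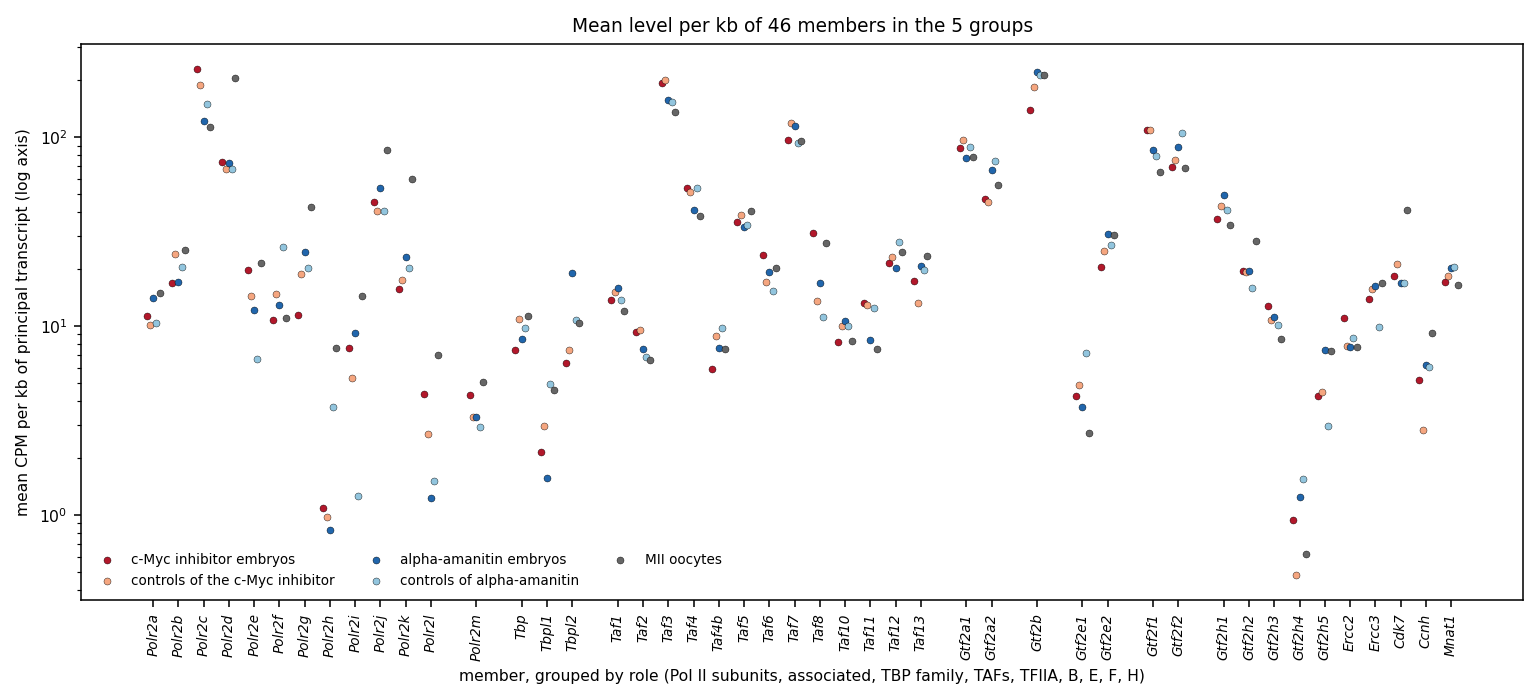
Mean CPM per kilobase of the longest principal transcript for the 46 members other than Taf9 (x axis, by role) in the 5 groups, on a log axis. Gtf2b, Polr2d, Taf3 and Polr2c lie at the top of the oocyte levels and Gtf2h4 at the bottom. Tbp's place depends on which of its principal transcripts is used, 12794 or 1891 bases long. The top places also depend on the length used: per kb of all exon bases Polr2d and Taf3 lead.

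The spread between libraries limited what could be seen for the rarer members. The median coefficient of variation over the 46 members other than Taf9 was 19.6% in c-Myc inhibitor embryos and 19.9% in their controls, 42.6% in alpha-amanitin embryos and 42.9% in their controls, and 20.7% in oocytes. In oocytes, 13 of the 46 averaged over 100 CPM, 29 between 10 and 100 CPM and 4 under 10 CPM. Taf3 was the steadiest of them there, at 639, 647, 624 and 684 CPM, and Gtf2h4 the least steady. Replicate 3 of the alpha-amanitin embryos had 0 counts for 9 members, while each oocyte library had 0 counts for 0 or 1.

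The c-Myc inhibitor series asks which transcripts depend on c-Myc activity in the 1-cell embryo. Within the machinery, treated embryos had more Taf8 and Polr2c and less Tbp, Taf4b, Taf7, Polr2b and Gtf2b than their controls, and the other 39 tested members were not called. A gene is called here where edgeR's quasi-likelihood test gives a Benjamini-Hochberg adjusted p under 0.05 over all genes tested. Of 46 members tested, 2 (4.35%) were higher and 5 (10.9%) lower, against 7.15% higher and 4.45% lower of all 13003 genes. At an unadjusted p under 0.05 there were 13 members, while 22.2% of all genes passed that level. The members' median log2 fold change was -0.06, against -0.00 for all genes, with 21 positive and 25 negative. Standard errors of the members' log2 fold changes ran from 0.070 for Taf3 to 1.22 for Gtf2h4.

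The promoters of 3 of the called genes are shown, since c-Myc acts through DNA and these windows lie directly before the annotated gene. Each is given as the 250 bases before the start in RefSeq (GRCm38.p6), 5′ to 3′ on the gene's strand. Capitals mark matches, on either strand, to 4 motifs: the E-box CACGTG, the TATA-box core TATAAA, the CCAAT box and the GC box GGGCGG, which reads CCGCCC on the other strand.
Taf8, chr17:47502292-47502541, minus strand: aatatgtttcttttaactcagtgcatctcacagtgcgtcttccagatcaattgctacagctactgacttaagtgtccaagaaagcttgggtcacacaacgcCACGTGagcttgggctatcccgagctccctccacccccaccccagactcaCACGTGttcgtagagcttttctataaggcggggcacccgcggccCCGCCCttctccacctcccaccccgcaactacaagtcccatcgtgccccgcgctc
Polr2c, chr8:94857200-94857449, plus strand: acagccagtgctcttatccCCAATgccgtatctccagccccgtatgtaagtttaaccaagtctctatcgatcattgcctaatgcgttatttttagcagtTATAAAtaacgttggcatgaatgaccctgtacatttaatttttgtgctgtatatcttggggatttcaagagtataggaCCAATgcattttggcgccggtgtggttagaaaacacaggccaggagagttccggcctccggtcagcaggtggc
Tbp, chr17:15499638-15499887, plus strand: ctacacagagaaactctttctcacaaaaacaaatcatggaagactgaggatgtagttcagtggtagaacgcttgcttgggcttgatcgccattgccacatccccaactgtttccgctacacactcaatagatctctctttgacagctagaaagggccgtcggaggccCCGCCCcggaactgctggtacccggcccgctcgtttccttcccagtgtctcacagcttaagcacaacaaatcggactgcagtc
The Taf8 window held the E-box at -149 and -99 from the start and the GC box at -55. Polr2c held CCAAT at -231 and -73 and TATAAA at -151, and Tbp held the GC box at -83, with no overlap between matches. A CACGTG lay in 7 of the 38 members with a window (18.4%), Taf8, Taf12, Gtf2a1, Gtf2f1, Gtf2h1, Gtf2h5 and Cdk7, and in 6.02% of all 32851 windows. Of those 7 genes, Taf8 was called and the other 6 were not. Polr2b, Polr2c, Tbp and Gtf2b were called and had a window without CACGTG. The other called genes, Taf7 and Taf4b, had no window, so that their motifs are not known here. The GC box lay in 24 of the 38 (63.2%), against 32.7% of all windows, TATAAA in 8 (21.1%, against 12.4%) and CCAAT in 12 (31.6%, against 33.8%). A member counted if any of its windows held the motif, and some members, such as Gtf2a1, had 2 windows. Shares of members and shares of windows are therefore not quite the same measure. A match is a description of the letters in this window, not a bound site.

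Taf8, whose protein helps assemble TFIID around its histone-fold partner Taf10, had the largest fold change of the 7 called genes. It lies at chr17:47483364-47502292 on the minus strand of GRCm38, and no other gene shares its exons. Its lowest, median and highest levels were 69.7, 81.0 and 110.2 CPM in the 7 c-Myc inhibitor libraries, against 30.4, 37.0 and 48.2 CPM in the 7 controls. Every treated library lay above every control. The means were 86.3 ± 14.9 CPM in treated and 37.9 ± 5.40 CPM in control embryos (SD, n = 7 each), a difference in log2 of 1.19 ± 0.13 (SE, adjusted p = 1.08e-07, edgeR). In oocytes Taf8 had 67.2, 93.5, 84.2 and 62.0 CPM, a range that the treated embryos overlapped and their controls did not. Its call was kept when any library was left out and in all 7 other fits.

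Tbp, the subunit of TFIID that bends DNA at the TATA box and also serves Pol I and Pol III, fell. It lies at chr17:15499888-15528379 on the plus strand. The lowest, median and highest levels were 84.1, 97.5 and 104.6 CPM in c-Myc inhibitor embryos, against 114, 148 and 162 CPM in their controls. The 2 groups did not overlap, and oocytes, at 118, 137, 163 and 160 CPM, lay with the controls. Means of 95.3 ± 6.83 CPM in treated and 140 ± 18.0 CPM in control embryos (SD, n = 7 each) gave a log2 fold change of -0.55 ± 0.097 (SE, adjusted p = 0.000156, edgeR). Tbp shares 19% of its exon bases with Pdcd2 on the other strand, which had 7.74 CPM in treated and 6.08 CPM in control embryos and was not called (log2 fold change 0.34, adjusted p = 0.768). The fall of Tbp kept its call without any 1 library and in all 7 other fits.

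Its paralogues gave no call in these embryos. Tbpl2, the oocyte's TBP replacement, had a lowest, median and highest level of 6.04, 9.65 and 11.9 CPM in c-Myc inhibitor embryos, against 3.19, 9.00 and 19.1 CPM in controls, and the groups overlapped throughout (log2 fold change -0.23 ± 0.35, SE, adjusted p = 0.802, edgeR). Tbpl1 (TRF2), which acts in male germ cell development, had 2.74, 6.07 and 8.85 CPM in treated embryos, against 2.24, 9.40 and 12.0 CPM in controls (log2 fold change -0.46 ± 0.36, SE, adjusted p = 0.532, edgeR).

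**Figure D2:**
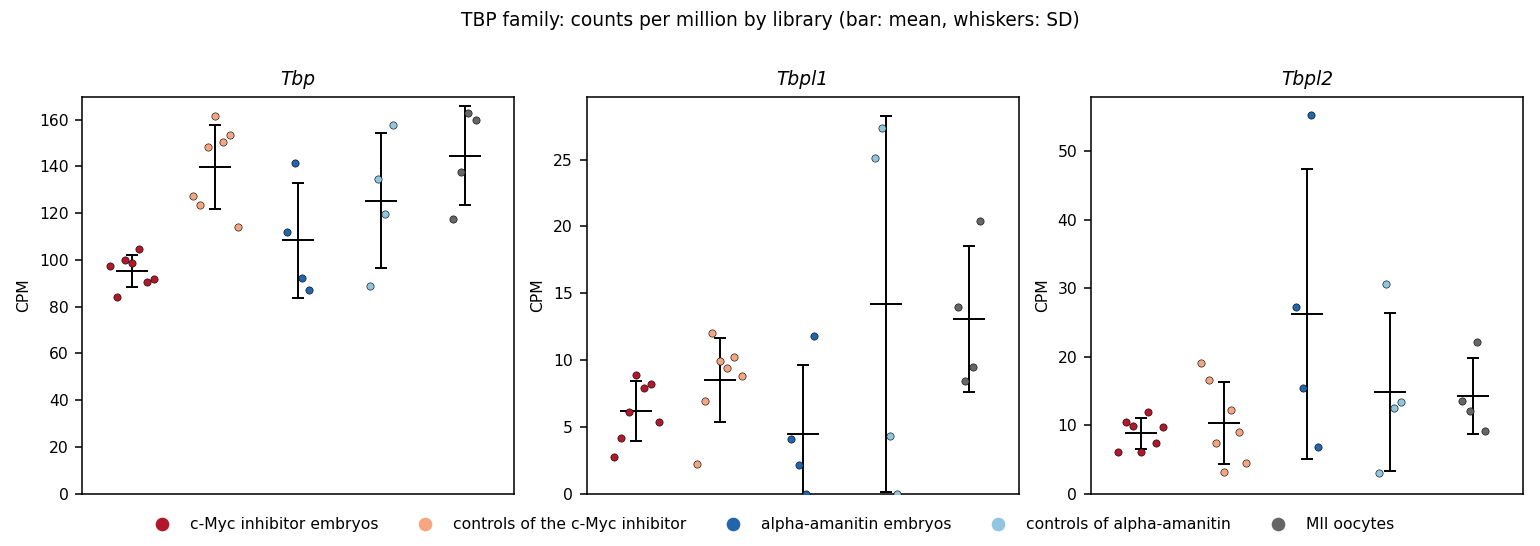
CPM of Tbp, Tbpl1 and Tbpl2 in each of the 26 libraries, by group; bars are means and whiskers SD, and the 3 panels have their own linear axes. The 7 c-Myc inhibitor libraries lie at 84.1 to 104.6 CPM of Tbp, below all 7 of their controls at 114 to 162 CPM, while Tbpl1 and Tbpl2 overlap between these groups.

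Among the other TAFs, Taf7 and Taf4b also fell. Taf7, which restrains the acetyltransferase activity of Taf1 until transcription starts, had a lowest, median and highest level of 298, 310.2 and 344 CPM in c-Myc inhibitor embryos, against 360.3, 377 and 446 CPM in controls. The groups did not overlap, although the change was small (319 ± 18.3 CPM in treated and 389 ± 31.1 CPM in control embryos, SD, n = 7 each, log2 fold change -0.29 ± 0.070, SE, adjusted p = 0.00529, edgeR). Taf4b had 27.5, 29.7 and 39.1 CPM in treated embryos, against 36.2, 41.7 and 60.1 CPM in controls. Treated replicate 2, the highest, lay within the control range and the other 6 treated libraries lay below it (log2 fold change -0.58 ± 0.15, SE, adjusted p = 0.00948, edgeR). Taf4, the broadly expressed paralogue of Taf4b, showed no call, at 194 to 291 CPM in treated and 197 to 276 CPM in control embryos. The calls of Taf7 and Taf4b were not kept in 1 fit of all 5 groups, which shares the larger spread of the alpha-amanitin series (adjusted p = 0.238 and 0.368), nor was that of Taf4b with the replicate number as a block (adjusted p = 0.077).

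Over the 13 TAFs tested, 1 was higher and 2 lower, with a median log2 fold change of -0.05. The largest of those without a call was Taf6, a histone-fold partner of Taf9, at 42.4 to 82.8 CPM in treated and 27.7 to 55.3 CPM in control embryos (log2 fold change 0.47, adjusted p = 0.0735). Taf13 had a log2 fold change of 0.40 and Taf10, shared with the SAGA coactivator complex, -0.29. Taf10 shares 45.9% of its exon bases with Ilk and Taf6 26.5% with Ap4m1, both on the other strand. As the sources used here give no strand setting, reads cannot be assigned there. In their own rows, Ap4m1 had 0.398 CPM in treated and 1.02 CPM in control embryos, and Ilk had 5.97 and 4.69 CPM. Taf1, Taf2, Taf3, Taf5, Taf11 and Taf12 had values between -0.15 and 0.03, with standard errors of 0.070 to 0.16.

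Of the 12 Pol II subunits, 1 rose and 1 fell. Polr2b, the second-largest subunit, which forms the active site together with Polr2a (chr5:77310147-77349324, plus strand), had a lowest, median and highest level of 47.3, 70.1 and 87.0 CPM in c-Myc inhibitor embryos, against 85.7, 94.4 and 120.1 CPM in controls. The ranges met at their ends, where treated replicate 4 lay just above the lowest control (69.8 ± 15.2 CPM in treated and 99.2 ± 13.1 CPM in control embryos, SD, n = 7 each, log2 fold change -0.51 ± 0.13, SE, adjusted p = 0.00752, edgeR). Its call was not kept with the replicate block (adjusted p = 0.076) or in 1 fit of all 5 groups (adjusted p = 0.166). Polr2c, the assembly platform of the enzyme (chr8:94857450-94873535, plus strand), had 300.5, 368 and 407 CPM in treated embryos, against 265, 299 and 323 CPM in controls. Treated replicates 5, 7 and 8 lay at 399.6 to 407 CPM, above all controls, and replicates 2 and 4 lay within the control range. Its log2 fold change was 0.29 ± 0.083 (SE, adjusted p = 0.0197, edgeR), and the call was not kept without treated replicate 5 (adjusted p = 0.0569) or 7 (adjusted p = 0.0523), with the replicate block (adjusted p = 0.16), where Taf13 was called higher instead, or in 1 fit of all 5 groups (adjusted p = 0.154). It shares 18.1% of its exon bases with Dok4 on the other strand. Dok4 was also higher, at 71.8 CPM in treated and 51.6 CPM in control embryos (log2 fold change 0.47, adjusted p = 0.0163, edgeR), and reads from the 2 genes cannot be told apart there, as the sources used here give no strand setting.

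Polr2a itself (chr11:69733997-69758637, minus strand) had a lowest, median and highest level of 58.5, 72.6 and 106.7 CPM in c-Myc inhibitor embryos, against 45.4, 75.6 and 81.3 CPM in controls. The groups overlapped, with a log2 fold change of 0.16 ± 0.14 (SE, adjusted p = 0.598, edgeR). Polr2d, which with Polr2g forms the stalk of the enzyme, had 61.7, 74.3 and 90.4 CPM in treated embryos, against 63.7, 68.5 and 77.0 CPM in controls (log2 fold change 0.11, adjusted p = 0.665). The stalk partner Polr2g had the most negative value of all members, -0.73 ± 0.29 (SE), at 7.00 to 17.0 CPM in treated and 9.19 to 26.4 CPM in control embryos, without a call (adjusted p = 0.114, edgeR). The subunits that Pol II shares with Pol I and Pol III, Polr2e, Polr2f, Polr2h, Polr2k and Polr2l, ranged from -0.46 to 0.69 and none was called. Polr2i and Polr2j, at 0.54 and 0.15, and Polr2m, which encodes the Pol II-bound protein Gdown1, at 0.38, were not called either. Polr2i shares 26.8% of its exon bases with Tbcb on the other strand.

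Gtf2b was the only called factor outside TFIID and the polymerase. It lies at chr3:142765045-142783606 on the plus strand. The lowest, median and highest levels were 145, 184 and 295 CPM in c-Myc inhibitor embryos, against 226, 272 and 296 CPM in controls. Treated replicates 5, 7 and 8, the same libraries that were highest for Polr2c, were the lowest at 145 to 156 CPM, and treated replicate 4 lay at the top of the control range. The means were 201 ± 55.9 CPM in treated and 269 ± 28.1 CPM in control embryos (SD, n = 7 each), with a log2 fold change of -0.42 ± 0.12 (SE, adjusted p = 0.0245, edgeR). The call was not kept in 7 of 14 fits that left out 1 library, namely treated replicates 1, 5, 7 and 8 and control replicates 4, 5 and 7, where adjusted p was 0.0512 to 0.0609, nor in 1 fit of all 5 groups (adjusted p = 0.0541).

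Neither the 2 TFIIA genes, Gtf2a1 and Gtf2a2, nor the TFIIE pair Gtf2e1 and Gtf2e2, nor the TFIIF pair Gtf2f1 and Gtf2f2 were called, with log2 fold changes between -0.28 and 0.06. In TFIIH, which carries the DNA helicases Ercc2 (XPD) and Ercc3 (XPB) and the kinase module of Cdk7, Ccnh and Mnat1, 0 of 10 genes were called, and their median was -0.03. Ccnh, cyclin H, had 8.34 to 15.7 CPM in treated and 1.99 to 8.77 CPM in control embryos (log2 fold change 0.87, adjusted p = 0.116). Ercc2 had a log2 fold change of 0.48 (adjusted p = 0.0967), and the values of Ercc3, Cdk7, Mnat1 and the core genes Gtf2h1, Gtf2h2, Gtf2h3 and Gtf2h5 lay between -0.22 and 0.25. Ercc2 shares 24.6% of its exon bases with Gm26852 on the other strand. Gtf2h4, at 0 to 6.08 CPM in treated and 0 to 2.40 CPM in control embryos, was too rare to compare.

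**Figure D3:**
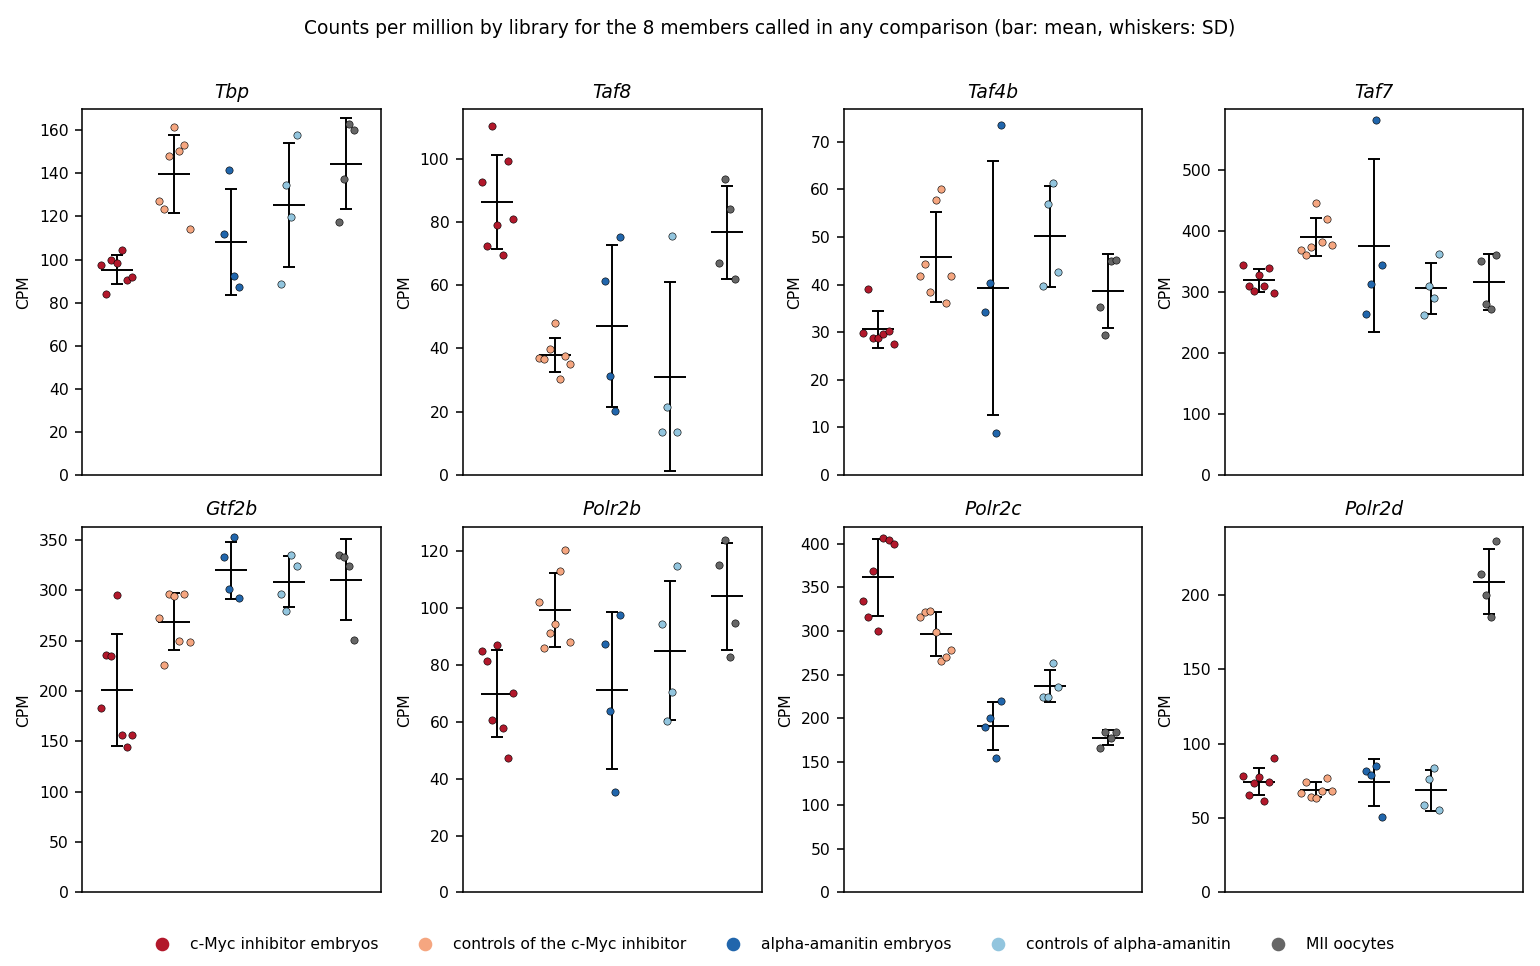
CPM in each library of the 8 members called in at least 1 comparison, by group; bars are means and whiskers SD, and each panel has its own linear axis from 0. Taf8 lies higher in all 7 c-Myc inhibitor libraries than in their controls, Tbp and Taf7 lower, and Polr2d separates the 4 oocyte libraries from all 22 embryo libraries.

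The alpha-amanitin contrast asks how transcript levels change when Pol II is blocked, and it gave no call among the machinery. Of 46 members tested, 0 were higher and 0 lower, against 0.0305% higher and 0.00761% lower of all 13133 genes (0.0381% together), which is 4 and 1 genes. Nor did any member reach an unadjusted p under 0.05, a level that 7.47% of all genes passed, and DESeq2 and limma voom called 0 members too. The lowest adjusted p among members was 0.693, for Taf4. The members' median log2 fold change was 0.07 and that of all genes -0.01, with 28 positive and 18 negative. Standard errors ran from 0.14 for Taf3 to 2.36 for Gtf2h4, so that many changes would not have been detectable with these libraries.

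Several members were measured with small errors and still gave no call. Gtf2b had 333, 301, 353 and 292 CPM in alpha-amanitin embryos and 296, 279.7, 335 and 324 CPM in controls (log2 fold change 0.07 ± 0.16, SE). Taf3 had 581, 701, 833 and 908 CPM in treated embryos, against 721, 731, 630.1 and 848 CPM in controls (0.06 ± 0.14). Tbp had 112, 142, 92.3 and 87.3 CPM in treated embryos, against 88.8, 135, 119.8 and 158 CPM in controls (-0.19 ± 0.24). In these 3 genes the groups overlapped. Polr2c had 189.9, 199.6, 154 and 219.6 CPM in treated embryos, against 224, 225, 263 and 236 CPM in controls. All 4 treated libraries lay below all 4 controls. How many members or genes separate so was not counted, and Polr2c was not called (-0.29 ± 0.17, unadjusted p = 0.109, adjusted p = 0.848, edgeR). Taf4 had 199, 173, 171 and 184 CPM in treated embryos, against 245, 257, 268 and 183 CPM in controls (-0.37 ± 0.18).

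Polr2a, whose protein is the target of the toxin, had 75.0, 77.9, 199.6 and 25.5 CPM in alpha-amanitin embryos and 43.9, 76.6, 93.5 and 64.7 CPM in controls. The treated libraries spanned both sides of the control range, with the shallow replicate 3 highest (log2 fold change 0.45 ± 0.41, SE). Without that library the value of Polr2a was -0.21, that of Taf7 0.02 in place of 0.31 and that of Tbpl2 0.18 in place of 0.84, and without control replicate 3 that of Taf8 was 1.57 in place of 0.63. Treated replicate 3 was also the highest for Taf7, at 582 CPM, where the other 3 treated libraries had 264, 313 and 344 CPM and controls 263, 309.6, 289 and 361 CPM (0.31 ± 0.20). Polr2b had 87.1, 63.8, 35.4 and 97.4 CPM in treated embryos, against 94.4, 60.0, 70.5 and 115 CPM in controls (-0.23 ± 0.32). Taf8 had 61.3, 31.4, 20.1 and 75.3 CPM in treated embryos, against 13.5, 21.6, 75.5 and 13.5 CPM in controls, with control replicate 3 apart from the other 3 (0.63 ± 0.52). Taf4b had 34.3, 40.2, 8.71 and 73.6 CPM in treated embryos, against 39.7, 57.0, 61.4 and 42.6 CPM in controls (-0.33 ± 0.48). Tbpl2 had 27.2, 15.4, 55.3 and 6.80 CPM in treated embryos, against 2.95, 30.6, 12.5 and 13.3 CPM in controls. Tbpl1 had 4.07, 2.10, 0 and 11.8 CPM in treated embryos, against 25.1, 27.4, 4.28 and 0 CPM in controls. In both paralogues the groups overlapped, with log2 fold changes of 0.84 ± 0.81 and -1.62 ± 1.43 (SE).

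**Figure D4:**
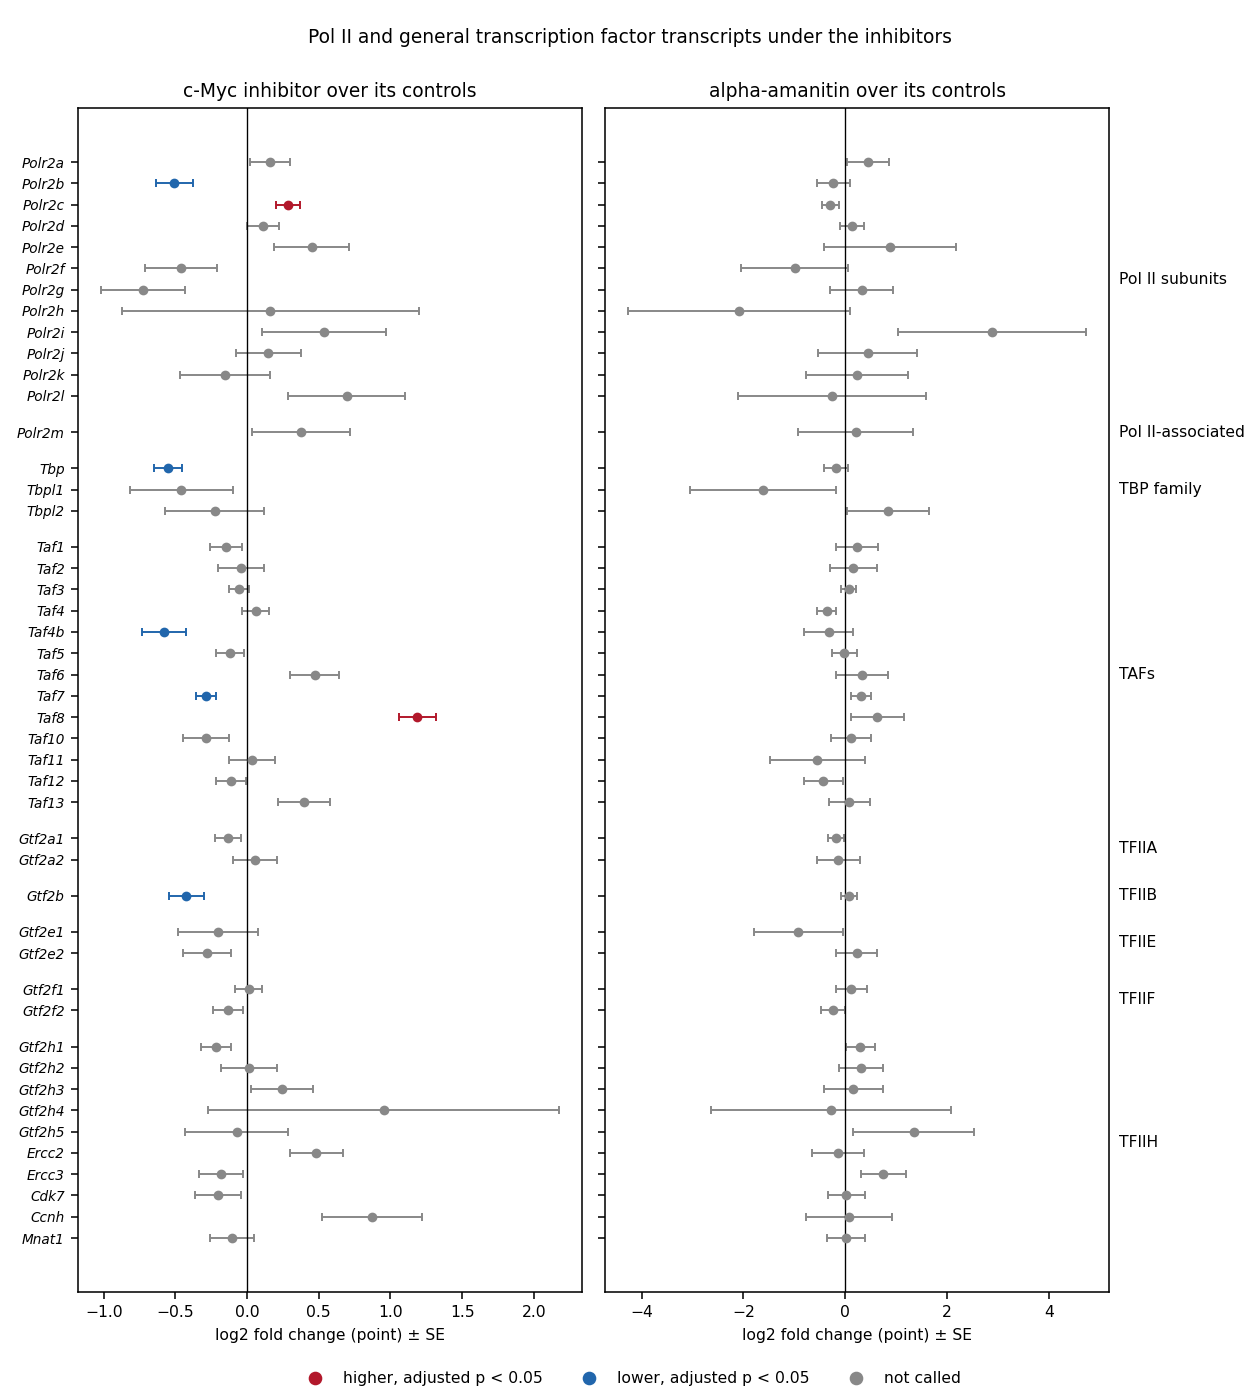
Log2 fold changes (points) and SE (bars) of the 46 members tested, by role, in c-Myc inhibitor embryos over their controls (left) and alpha-amanitin embryos over theirs (right); the panels have different axes. Taf8 and Polr2c are called higher and Tbp, Taf4b, Taf7, Polr2b and Gtf2b lower on the left, and none on the right, where bars are longer.

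Whether the inhibitors differed was tested as the c-Myc inhibitor effect minus the alpha-amanitin effect in 1 fit of the 22 embryo libraries. Among 46 members, 0 were called, against 0.754% higher and 0.45% lower of all 15790 genes, and 5 had an unadjusted p under 0.05, which 17.2% of all genes passed. For the members called under the c-Myc inhibitor, an effect of alpha-amanitin of another size was therefore not shown by edgeR's test. Polr2c came nearest, with a difference of 0.58 ± 0.17 (log2, SE, adjusted p = 0.0717, edgeR), which DESeq2 called (adjusted p = 0.0105), as did edgeR without replicate 4 of the alpha-amanitin embryos (adjusted p = 0.0444). Taf7 had a difference of -0.59 ± 0.20 (SE, adjusted p = 0.117, edgeR), called without replicate 1 of the alpha-amanitin embryos (adjusted p = 0.0464). The difference of Tbp was -0.36 ± 0.23 (SE, adjusted p = 0.453, edgeR). That of Taf8, 0.57 ± 0.50 (SE, adjusted p = 0.663, edgeR), had a wider error, and it was -0.37 without control replicate 3 of the alpha-amanitin series.

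Between egg and embryo, the alpha-amanitin series' control embryos differed from oocytes in 1 called member: Polr2d was lower in embryos. It had 58.8, 76.4, 83.9 and 55.7 CPM in the 4 control embryo libraries of the alpha-amanitin series, against 213.9, 199.96, 185 and 236 CPM in the 4 oocyte libraries. The groups lay far apart, at 68.7 ± 13.6 CPM in control embryos and 209 ± 21.7 CPM in oocytes (SD, n = 4 each), a difference in log2 of -1.61 ± 0.24 (SE, adjusted p = 0.00026, edgeR). Of 46 members, 0 were higher and 1 (2.17%) lower, against 1.2% higher and 1.9% lower of all 13133 genes (3.09% together). At an unadjusted p under 0.05 there were 6 members, and 14.1% of all genes. The median log2 fold change was -0.03 for the members and -0.03 for all genes, and the members' median was -0.24 by limma voom and -0.19 without control replicate 2.

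Alpha-amanitin embryos, compared with the same oocyte libraries, gave the same single member. Polr2d had 81.7, 78.8, 85.3 and 50.6 CPM there (log2 fold change -1.48 ± 0.24, SE, adjusted p = 0.000774, edgeR). Of 46 members, 0 were higher and 1 was lower, against 0.51% and 1.34% of all genes. In the c-Myc inhibitor series, control embryos held 63.7 to 77.0 CPM of Polr2d and the c-Myc inhibitor embryos 61.7 to 90.4 CPM, so that all 22 embryo libraries lay below the lowest oocyte library. In both comparisons with oocytes Polr2d was called in all 12 fits that left out 1 library and under every other setting tried.

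The other subunits gave mostly negative values and no calls in the fit of 12 libraries. Of the 12 subunits, 10 had negative log2 fold changes in control embryos, with a median of -1.08, against -0.03 for all genes. In alpha-amanitin embryos, over the same oocytes, 10 were negative, with a median of -0.70, against -0.04 for all genes. The share of negative values over all genes was not counted. The exceptions in control embryos were Polr2c, at 0.41 ± 0.17, and Polr2f, at 1.25 ± 1.06 (SE). The negative values carried large errors: Polr2g was at -1.08 ± 0.63, Polr2j at -1.07 ± 0.98, Polr2k at -1.57 ± 1.02, Polr2l at -2.20 ± 1.92, Polr2e at -1.69 ± 1.32, Polr2h at -1.04 ± 2.11 and Polr2i at -3.52 ± 1.90. Polr2a had -0.54 ± 0.41 and Polr2b -0.30 ± 0.32. Polr2i had 0 counts in 3 of the 4 control embryo libraries, Polr2h in 2, and Polr2e and Polr2l in 1 each. Limma voom and the fit without control replicate 4 called Polr2i lower in control embryos, and 1 fit of all 5 groups called Polr2c higher. Polr2g, the partner of Polr2d in the stalk, had 14.2, 11.3, 17.7 and 28.7 CPM in control embryos, against 25.8, 36.9, 48.8 and 40.4 CPM in oocytes, with an overlap of 1 library.

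Among the general factors, Cdk7, the TFIIH kinase that phosphorylates the tail of Pol II, came closest to a call. It had 30.7, 27.4, 47.002 and 29.3 CPM in control embryos, against 74.0, 54.3, 108.7 and 90.5 CPM in oocytes, and the groups did not overlap. Its log2 fold change was -1.29 ± 0.36 (SE, adjusted p = 0.0555, edgeR), and DESeq2 and limma voom called it. In alpha-amanitin embryos Cdk7 had 34.9, 37.4, 32.1 and 30.04 CPM (-1.27 ± 0.36, adjusted p = 0.0805, edgeR). Of its partners in the kinase module, Mnat1 was at 0.30 ± 0.38 and Ccnh at -0.60 ± 0.84 in control embryos. Taf8 was at -1.31 ± 0.52 (adjusted p = 0.212), and control replicate 3, at 75.5 CPM, was the library that lay within the oocyte range. Without that library Taf8 was called, with a log2 fold change of -2.26 (adjusted p = 0.0119, edgeR). Tbp, Tbpl1 and Tbpl2, at -0.21 ± 0.24, 0.11 ± 1.40 and 0.05 ± 0.80, and Taf4b, at 0.37 ± 0.48, gave no call (SE), and without control replicate 2 Tbpl1 and Tbpl2 were at -0.43 and -0.58.

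A further comparison set the 7 control libraries of the c-Myc inhibitor series against the same oocytes in 1 fit of all 5 groups, where series and stage cannot be told apart. There 4 of 46 members were higher and 4 lower, against 4.32% and 4.36% of all 16319 genes (8.68% together). The lower ones were Polr2d (log2 fold change -1.60 ± 0.16, SE, adjusted p = 1.79e-09, edgeR), Cdk7 (-0.97 ± 0.24, adjusted p = 0.00504), Ccnh (-1.70 ± 0.54, adjusted p = 0.0422) and Taf8 (-1.02 ± 0.33, adjusted p = 0.0412). The higher ones were Polr2c (0.73 ± 0.12), Gtf2f1, the large subunit of TFIIF (0.73 ± 0.21), Taf3 (0.56 ± 0.10) and Taf4 (0.43 ± 0.13). Of the 12 subunits, 10 were negative again, with a median of -1.13, while the median of all genes was 0.03. Polr2k had 4.88 to 15.8 CPM in these controls and 20.8 to 43.1 CPM in oocytes, without overlap and without a call (adjusted p = 0.0813). The 3 comparisons share their oocyte libraries.

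**Figure D5:**
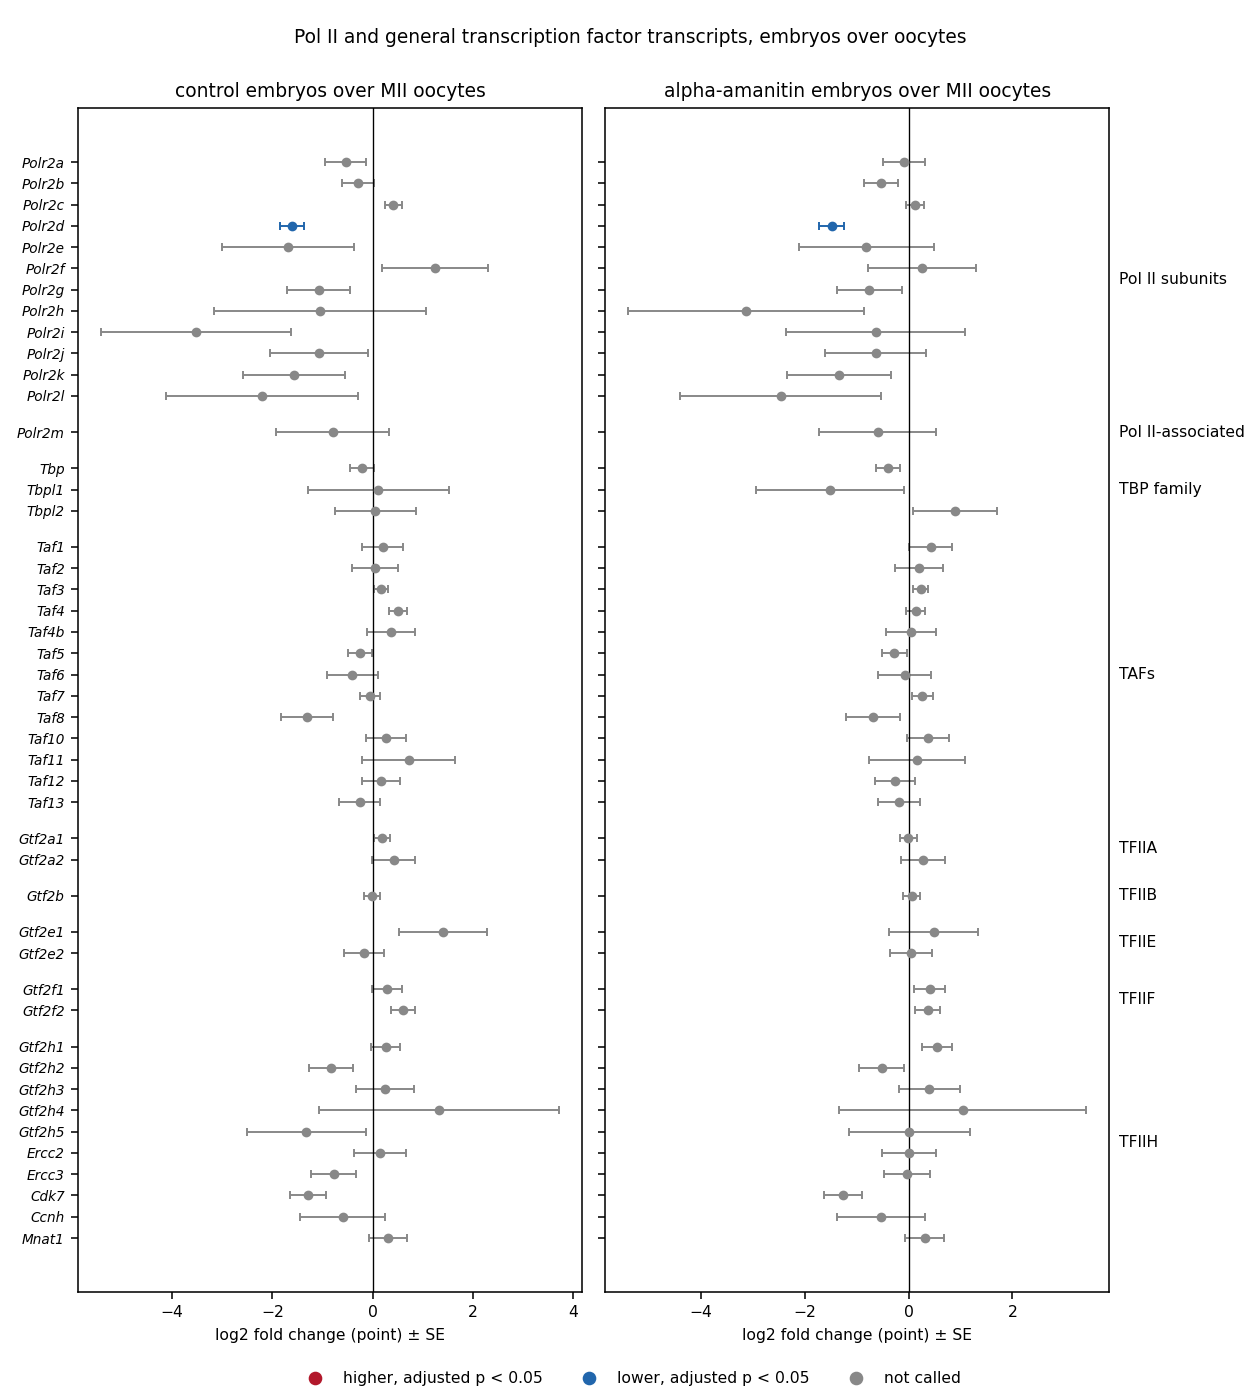
Log2 fold changes (points) and SE (bars) of the members, by role, in embryos over MII oocytes, for control embryos and for alpha-amanitin embryos of the same series. Polr2d is the member called lower in both, at -1.61 and -1.48, and most Pol II subunits lie left of 0 with long bars.

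The machinery around Pol II was counted in 5 further lists. Under the c-Myc inhibitor, 34 elongation factor genes were tested, of which 1 was higher and 7 (20.6%) lower, against 7.15% higher and 4.45% lower of all 13003 genes. Cdk12, a kinase of the Pol II tail, fell (log2 fold change -0.30 ± 0.064, SE, adjusted p = 0.00168, edgeR), and Hexim1, which holds P-TEFb inactive, had 0 counts in all 7 treated libraries and 1.68 to 9.88 CPM in controls. In the alpha-amanitin controls Hexim1 was at 0 too, in 4 of 4 libraries. Tcea3, a cleavage-stimulating elongation factor, was higher (0.48 ± 0.13, adjusted p = 0.0122). Of 33 Mediator genes, 1 was higher, Med20 (2.09 ± 0.31, adjusted p = 1.14e-05), at 8.16 to 25.9 CPM in treated and 2.28 to 7.55 CPM in control embryos, and 2 were lower, Med13l (-0.32 ± 0.083) and Med17 (-0.27 ± 0.072). Among 18 genes of Pol II assembly and tail modification, Rprd2 was higher (1.29 ± 0.15, adjusted p = 2.57e-07) and 0 lower. Among 9 TBP regulators and TAF or TFIIA paralogues, Gtf2a1l, the germ cell paralogue of Gtf2a1, was higher (0.93 ± 0.22) and Taf9b lower (-0.55 ± 0.15). None of 35 Pol I and Pol III genes was called. The lists' medians, between -0.10 and 0.12, stood beside -0.00 for all genes.

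Rprd2, which binds the Pol II tail, was, like Taf8, higher in c-Myc inhibitor embryos than in their controls. It averaged 108 ± 18.9 CPM in c-Myc inhibitor embryos and 44.1 ± 11.9 CPM in their controls (SD, n = 7 each), and 47.2 ± 24.0 CPM in alpha-amanitin embryos, 50.4 ± 21.1 CPM in their controls and 235 ± 24.0 CPM in oocytes (SD, n = 4 each). Against oocytes it fell in control embryos (log2 fold change -2.23 ± 0.34, SE, adjusted p = 0.000303, edgeR) and in alpha-amanitin embryos (-2.32 ± 0.34, adjusted p = 0.00027). Control embryos also had less Gpn1, a GTPase that helps import Pol II into the nucleus (-2.36 ± 0.58), Polr3a (-1.24 ± 0.22), Polr1a (-1.48 ± 0.32), Eloc (-1.46 ± 0.33), Med14 (-0.93 ± 0.24) and Med17 (-0.66 ± 0.18) than oocytes, and 0 genes of the 5 lists were higher. Lower were 2 of 33 Mediator genes, 1 of 34 elongation genes and 2 of 35 Pol I and Pol III genes. So were 2 of 18 assembly and tail modification genes, and 0 of 9 TBP regulators and paralogues. Of all 13133 genes, 1.9% were lower and 1.2% higher. Alpha-amanitin embryos had less Leo1, of the PAF1 elongation complex, than oocytes (-1.90 ± 0.44, adjusted p = 0.0239). With Rprd2, 1 of 34 elongation and 1 of 18 assembly and tail modification genes were lower there, against 1.34% of all genes. Between alpha-amanitin embryos and their controls, 0 genes of the 5 lists were called, against 0.0381% of all 13133 genes. In the difference of the inhibitors' effects, 0 genes were higher and 2 lower, Hexim1 (adjusted p = 0.016) and Gtf3c3, a subunit of the Pol III factor TFIIIC (-2.63 ± 0.66, adjusted p = 0.0425, edgeR). They were 1 of 36 elongation and 1 of 35 Pol I and Pol III genes. Of all 15790 genes, 0.754% were higher and 0.45% lower. Hexim1 averaged 0.13 CPM in alpha-amanitin embryos, with 3 of 4 libraries at 0, and was at 0 in 4 of 4 of their controls. In the c-Myc inhibitor series' controls it averaged 4.43 CPM. A fall under alpha-amanitin could therefore not have been seen. The call for Hexim1 cannot show whether the 2 inhibitors act differently on it. Gtf3c3 averaged 75.9 ± 82.5 CPM there (32.5 to 199.6) and 13.4 ± 8.83 CPM in controls (SD, n = 4 each). It averaged 28.3 CPM in c-Myc inhibitor embryos and 30.9 CPM in their controls.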

How the data were processed

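Whole-number read counts per gene were deposited by the authors as 1 table with 55401 Ensembl gene IDs in rows and 26 libraries in columns. The RNA was amplified straight from the lysed cells with a Takara SMARTer total RNA kit for very small inputs (Pico Input, v2), per the labels' protocols. The submitters' processing notes name cutadapt 1.7.1, STAR 2.5.0a and the build GRCm38. The sources used here name no counting program, strand setting or annotation. Symbols, positions and exon overlaps come from GENCODE vM21, which named 55141 IDs. Promoter sequences come from RefSeq (GRCm38.p6).

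Counts were tested in R 4.3.3 with the quasi-likelihood F test of edgeR 4.0.16, with TMM scaling, filterByExpr (minimum count 10, minimum total 15) and Benjamini-Hochberg adjustment over all genes tested, threshold 0.05. The c-Myc inhibitor contrast used its 14 libraries, the contrasts among alpha-amanitin embryos, their controls and oocytes 1 fit of 12, and the difference of effects 1 fit of 22. SE is the size of the log2 fold change over the square root of F. Alternatives were RLE scaling, DESeq2 1.42.0, limma 3.58.1 voom, no filter, a replicate block, 1 fit of all 5 groups, the c-Myc inhibitor series' controls as embryos, unscaled totals and leaving out each library. A fit without the robust variance prior and the principal transcript lengths were added after seeing the data. The scripts were tested on simulated counts.

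The members and the 5 further lists were chosen with earlier results of these data known. Members called in any contrast and Polr2a, Tbp, Tbpl1, Tbpl2 and Taf4b are described in full. The other members are given by ranges and counts, and those singled out beyond that were chosen after their values were seen. Of the further lists, the 2 called genes with the smallest p in each direction are named, and the other called genes of control embryos against oocytes were added after their values were seen.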

Additional observations from a re-analysis of the deposited data

Results flagged for a closer look

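The levels of the 11 genes described in full were checked in each of the 5 groups, 55 groups of values in all, for a library whose gap to the others, on the log2(CPM + 1) scale, passes Dixon's 95% limit. Chance flags about 1 in 20 such groups, and 4 were flagged. Replicate 4 of the alpha-amanitin embryos had the lowest Polr2d of its group, 50.6 CPM. Replicate 2 of the c-Myc inhibitor embryos had the highest Taf4b of its group, 39.1 CPM, the 1 treated library inside the control range. Replicate 1 of the c-Myc inhibitor controls had the lowest Tbpl1 of its group, 2.24 CPM. Replicate 4 of the oocytes had the lowest Gtf2b of its group, 250.3 CPM.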

How the results depend on the processing

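Polr2d, Tbp and Taf8 kept their calls under all settings run. In the c-Myc inhibitor contrast 1 member was called higher and 1 lower in 1 fit of all 5 groups, 3 were called lower and 2 higher (Taf8 and Taf13) with the replicate block, and 1 to 4 higher when 1 library was left out (without treated replicate 5 or 7 it was 1, without control replicate 2 it was 4). Genes called were 267 higher and 116 lower in 1 fit of all 5 groups, and 347 lower with the replicate block. Same-numbered libraries did not deviate together (correlations -0.031 to 0.049). The best correlation with a library of any number was also small, at most 0.0901, so that this check cannot exclude a pairing by number.

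For alpha-amanitin against its controls, genes called higher were 91 by DESeq2, 64 without a filter, 70 in 1 fit of all 5 groups, 1 with the replicate block and 0 to 4 with 1 library left out. Lower were 32 by DESeq2, 7 by limma voom, 11 without a filter, 45 in the fit of all groups and 0 to 3 with 1 library left out. No member was called in any of these fits.

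For control embryos against oocytes, genes called higher were 285 by DESeq2, 280 by limma voom, 589 in 1 fit of all 5 groups, 705 with the c-Myc inhibitor series' controls and 76 to 328 with 1 library left out, and lower 484, 660, 837, 712 and 163 to 463. Members called lower were 2 by DESeq2, 3 by limma voom, 3 in the fit of all groups, 4 with the other controls and 1 to 3 with 1 library left out (3 without control replicate 3, 2 without control replicate 4 or alpha-amanitin replicate 3). Members called higher were 3 in the fit of all groups and 4 with the other controls. For alpha-amanitin embryos against oocytes, genes called higher were 187 by DESeq2, 141 by limma voom, 174 without a filter, 351 in the fit of all groups and 25 to 98 with 1 library left out, and lower 300, 401, 290, 553 and 119 to 268. Members called lower were 2 by DESeq2 and in the fit of all groups, the added one being Cdk7. The members' median, 0.00345, was -0.15 by limma voom.

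For the difference of the inhibitors' effects, genes called higher were 413 by DESeq2, 234 without a filter, 46 with the replicate block and 79 to 174 with 1 library left out, and lower 629, 209, 3 and 35 to 125. Members called higher were 1 by DESeq2 and 0 to 1 with 1 library left out, and members called lower 0 to 1. The causes of these shifts were not tested. RLE scaling and leaving out the robust prior moved no count by over 1.5 times. Depth and the spread of the alpha-amanitin series limit what could be seen for rare members there.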
